A study of Mus musculus with 26 samples.

Results

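IGHV10-1, IGHV10-3 and IGHV13-2 are 3 heavy-chain variable (V) gene segments of the mouse, followed here through the antibody transcripts of skin, spleen and lymph node. They were chosen by name from the V gene calls of the deposited tables, where they were 3 of 188 V genes, and 3 of 165 in the 12 tissue replicates. They held 35244 of 1674869 clonotypes in all samples and 31165 of 1287887 in the tissues. IGHV10-1 had 22966 clonotypes (19701 in the tissues), IGHV10-3 had 11609 (10880 in the tissues) and IGHV13-2 had 669 (584 in the tissues). A clonotype is here 1 V gene, 1 joining (J) gene and 1 junction nucleotide sequence within a biological replicate.

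All tissues came from wild-type (WT) mice that had been associated with *Staphylococcus epidermidis*, a common skin commensal, and the samples are labelled as B cells. The groups were ear skin, spleen and lymph node, each in 4 biological replicates, every replicate sequenced as 2 technical tables that were summed, and a positive control with 1 replicate of 2 tables, whose nature the labels do not give. No unassociated animals were among the samples analysed here, so the comparisons are between tissues, isotypes and V genes. The tissue was read from the titles, because the tissue field says ear skin for every tissue, and the labels do not say which samples shared a mouse or how many mice went into one. P-values therefore measure the spread between these samples. Skin replicates held 275 to 350 clonotypes, spleen replicates 25645 to 438995, lymph node replicates 27520 to 117561, and the control 386982. Skin had 15.3 to 23.4 copies per clonotype, spleen 2.04 to 6.32 and lymph node 1.94 to 3.39, a copy being 1 unit of the deposited count. The V gene profile of spleen replicate 1, the shallowest spleen, correlated at 0.835 to 0.943 with the other spleens, the lowest value being with replicate 2, against 0.941 to 0.986 among those (Pearson's r over 91 V genes). In this bulk assay, fewer B cells of a kind and less transcript per cell cannot be told apart.

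A B cell makes its heavy chain by joining one V, one D and one J segment, and the seam between them encodes the third complementarity-determining region (CDR3), which lies at the centre of the antigen-binding site. IGHV10 is the small mouse family once called DNA4, known from antibodies against DNA in lupus-prone mice, and IGHV13 is another small family of the same locus. After meeting antigen a B cell may mutate its V segment and switch from IgM and IgD to IgG, IgA or IgE.

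The members lie close together on chromosome 12 in GRCm38 (RefSeq assembly GRCm38.p6, the build called mm10 in the submitters' processing notes). Ighv13-2 spans 114357761 to 114358060, Ighv10-1 spans 114479007 to 114479451 and Ighv10-3 spans 114523441 to 114523887, each annotated as a V segment. The 141 nucleotides before the junction, as read in unmutated sequences, are shown because they carry the difference between the calls. In the first pair capitals mark the letters that separate IGHV10-1 and IGHV10-3 in the tissues, in the third the letters by which the control's IGHV10-1 allele differs from the tissues' allele, and in the fourth the letters by which the tissues' IGHV13-2 allele differs from the control's.
IGHV10-1*01: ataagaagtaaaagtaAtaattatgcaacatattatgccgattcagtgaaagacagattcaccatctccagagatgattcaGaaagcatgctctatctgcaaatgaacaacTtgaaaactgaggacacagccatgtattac
IGHV10-3*02: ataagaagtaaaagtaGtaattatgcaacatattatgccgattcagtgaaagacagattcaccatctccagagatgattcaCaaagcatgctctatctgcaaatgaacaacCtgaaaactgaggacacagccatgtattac
IGHV10-1*02: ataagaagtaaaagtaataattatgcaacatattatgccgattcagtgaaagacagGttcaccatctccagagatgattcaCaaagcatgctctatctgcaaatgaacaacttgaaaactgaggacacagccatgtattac
IGHV13-2*01: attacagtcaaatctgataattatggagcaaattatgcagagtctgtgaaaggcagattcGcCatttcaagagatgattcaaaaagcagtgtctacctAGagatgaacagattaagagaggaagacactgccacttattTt

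Positions are counted from 1 at the 5′ end of this stretch. IGHV10-1*01 and IGHV10-3*02 differed by A17G, G82C and T112C, so they were 97.9% identical, whereas IGHV10-1*01 and IGHV13-2*01 were 72.3% identical. Almost all IGHV10-1 sequences of the tissues were called *01 (26303 of 26327, 99.9%), IGHV10-3 sequences *02 (12562 of 13778, 91.2%) or *03 (8.83%), and IGHV13-2 sequences *01 (692 of 693). IGHV10-3*03 differs from *02 by G17A, which leaves 2 letters between it and IGHV10-1*01. Among tissue sequences called IGHV10-1, 94.2% carried all 3 IGHV10-1*01 letters and 4.0% carried the IGHV10-3*02 letter at position 17 alone. Among those called IGHV10-3, 90.0% carried all 3 IGHV10-3*02 letters, 6.37% the letters of *03, and 118 (0.856%) all 3 letters of IGHV10-1*01. Outside the junction the calls differ in few letters, and the call did not follow those letters alone, since 109 of these 118 had the junction start most frequent in IGHV10-3. Counts of the pair are given separately and, where it matters, together.

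The junction starts of the 3 genes are shown here because the first codons enter the CDR3. IGHV10-1 and IGHV10-3 shared the first 9 letters, tgtgtgaga, in 74.5% and 81.2% of tissue clonotypes, and their most frequent starts differed only after them. IGHV13-2 differed from both within these letters. Each line is the most frequent first 11 nucleotides of the junction in the tissues, and the start was found in 47.1% of IGHV10-1, 54.4% of IGHV10-3 and 38.9% of IGHV13-2 clonotypes.
IGHV10-1: tgtgtgagaca
IGHV10-3: tgtgtgagaga
IGHV13-2: tgtagtagatc

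The first CDR3 residue after the conserved cysteine was valine in 97.9% of IGHV10-1 and 98.5% of IGHV10-3 clonotypes and serine in 97.1% of IGHV13-2 clonotypes, against alanine in 89.4% of clonotypes of all other V genes. The next residue was usually arginine, and the third residue set the pair apart. IGHV10-1 most often continued with histidine (28.5% of clonotypes) or glutamine (19.7%), and IGHV10-3 with the acidic residues aspartate (30.8%) or glutamate (26.2%). IGHV13-2 continued with serine (41.1%) or glycine (17.0%).

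IGHV10-1 was the most frequent of the 3 genes in every spleen and lymph node replicate, IGHV10-3 came next, and IGHV13-2 was rare. IGHV10-1 made up 2.0%, 1.25%, 0.932% and 1.82% of clonotypes in skin replicates 1 to 4 (7, 4, 3 and 5 clonotypes), 0.214%, 2.21%, 0.937% and 0.899% in spleen (55, 9684, 2098 and 2738 clonotypes), and 1.95%, 1.73%, 1.60% and 1.76% in lymph node (537, 2038, 835 and 1697 clonotypes). The lymph nodes lay close together, while the spleens ranged widely and enclosed them. Skin averaged 1.5% ± 0.496, spleen 1.06% ± 0.830 and lymph node 1.76% ± 0.145 (SD, n = 4 each). The control had 0.844%.

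IGHV10-3 made up 1.14%, 0%, 0.311% and 0.727% of clonotypes in skin (4, 0, 1 and 2 clonotypes), 0.121%, 1.06%, 0.533% and 0.489% in spleen (31, 4664, 1194 and 1489 clonotypes), and 1.42%, 0.994%, 1.29% and 1.31% in lymph node (391, 1169, 673 and 1262 clonotypes). Spleen replicate 2 alone reached the lymph node range. Skin averaged 0.545% ± 0.498, spleen 0.551% ± 0.388 and lymph node 1.25% ± 0.182 (SD, n = 4 each), and the control had 0.188%. The count of 0 in skin replicate 2 has an upper limit of 0.938%, from 3 counts over its 320 clonotypes, so depth does not set that replicate below skin replicates 3 and 4.

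IGHV13-2 was found in skin only in replicate 4, with 3 clonotypes (1.09%, exact Clopper-Pearson 95% interval 0.226% to 3.15%). The other skin replicates had 0 clonotypes, which allows shares of up to 0.857%, 0.938% and 0.932%. These intervals and limits cover counting error only. Spleen had 0.00390%, 0.0314%, 0.0393% and 0.0200% (1, 138, 88 and 61 clonotypes) and lymph node 0.0690%, 0.0919%, 0.107% and 0.114% (19, 108, 56 and 110 clonotypes). Every spleen share was below every lymph node share, but how many other V genes separated in this way was not counted. In the test below, 20 of 91 V genes (22%) passed between these tissues, 13 of them lower in spleen. Spleen averaged 0.0237% ± 0.0154 and lymph node 0.0956% ± 0.0201 (SD, n = 4 each), and the control had 0.0220%. All spleen and lymph node shares lay below the limit that a count of 0 allows in skin, so a like share in skin would not be detectable at this depth.

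**Figure D1:**
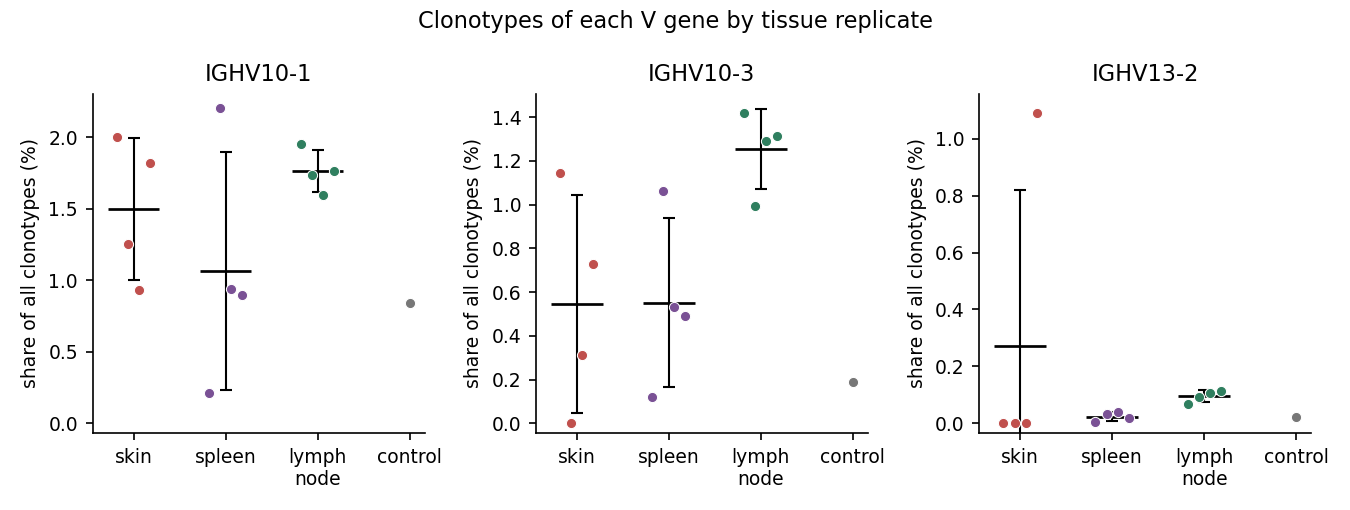
Share of all clonotypes (%, vertical axis, separate scale per panel) for each V gene in skin, spleen, lymph node and the control. Each point is 1 biological replicate in the order 1 to 4 from left to right, bars are the mean with SD (n = 4), and IGHV13-2 had 0 clonotypes in 3 of 4 skin replicates.

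Clonotype counts per V gene were compared between tissues with edgeR's quasi-likelihood test over all 12 tissue replicates, with p-values adjusted by Benjamini-Hochberg over all 91 tested V genes and a threshold of 0.05. Both IGHV13-2 and IGHV10-3 were lower in spleen than in lymph node. As spleen over lymph node, the log2 fold change was -1.90 for IGHV13-2 (SE 0.447, adjusted p = 0.00872), -1.21 for IGHV10-3 (SE 0.416, adjusted p = 0.0472) and -0.76 for IGHV10-1 (SE 0.406, adjusted p = 0.226). In that comparison 20 V genes passed, 22% of those tested, with 7 higher and 13 lower, so 2 of 3 members stand against a background in which such calls were common.

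The 2 calls differed in how firmly they held. That of IGHV13-2 passed in 22 of 23 settings, and in the exception, counting copies, it had a log2 fold change of -0.78 (adjusted p = 0.892). That of IGHV10-3 passed in 4 of 23 settings, and missed the threshold with replicate number as a term. Without any 1 skin, lymph node or spleen replicate other than spleen replicate 2 its adjusted p lay between 0.0566 and 0.214, while without spleen replicate 2 the log2 fold change was -1.68 (adjusted p = 0.00354). IGHV10-1 passed in 1 of 23 settings, without spleen replicate 2 (log2 fold change -1.35, adjusted p = 0.00684). Spleen replicate 2 had the highest share of both IGHV10 genes among spleens, and replicate 1 the lowest. With the IGHV10 pair counted as 1 gene, which was tried only after seeing the data, the log2 fold change was -0.95 (SE 0.400, adjusted p = 0.0964).

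No member passed in the skin comparisons. The log2 fold change of skin over spleen was 0.43 for IGHV10-1 (SE 0.635, adjusted p = 0.708), -0.08 for IGHV10-3 (SE 0.863, adjusted p = 0.935) and 3.11 for IGHV13-2 (SE 1.37, adjusted p = 0.159), in a comparison where 7 of 91 V genes (7.69%) passed. Over lymph node it was -0.33 for IGHV10-1 (SE 0.616, adjusted p = 0.811), -1.29 for IGHV10-3 (SE 0.798, adjusted p = 0.420) and 1.22 for IGHV13-2 (SE 1.18, adjusted p = 0.602), and 0 of 91 V genes (0%) passed with edgeR, although 17 had an unadjusted p under 0.05 and DESeq2 called 37. The IGHV13-2 values rest on the 3 clonotypes of skin replicate 4, and without that replicate skin held none. All skin values rest on 29 clonotypes.

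The V genes of the smaller families IGHV3, IGHV4, IGHV6, IGHV7, IGHV9, IGHV11, IGHV12, IGHV14, IGHV15 and IGHV16 were set beside the members. Of the 21 tested, 4 were higher in spleen than in lymph node (IGHV14-1, IGHV14-2, IGHV14-3 and IGHV9-4) and 4 lower (IGHV3-1, IGHV3-3, IGHV3-5 and IGHV3-8), with a median log2 fold change of -0.11, against -0.12 over all 91. None of the 21 passed in either skin comparison by edgeR, where their medians were -0.28 over spleen and -0.03 over lymph node (all 91 had -0.28 and -0.19). By Pearson's correlation of log2 clonotype shares over the 12 tissue replicates, the genes most like IGHV10-3 were IGHV7-3 (0.959), IGHV3-8 (0.920) and IGHV3-6 (0.893). Those most like IGHV13-2 were IGHV9-2 (0.889), IGHV5S21 (0.888) and IGHV1S50 (0.841). IGHV10-1 had no near match, with IGHV8-12 (0.516), IGHV5-16 (0.493) and IGHV3-6 (0.490) at the top. These replicates share tissue and depth, so the correlations are descriptions.

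The balance between the IGHV10 genes also differed between these spleens and lymph nodes. IGHV10-1 had 1.77, 2.08, 1.76 and 1.84 clonotypes per IGHV10-3 clonotype in spleen replicates 1 to 4, against 1.37, 1.74, 1.24 and 1.34 in lymph node replicates 1 to 4. Every spleen ratio was above every lymph node ratio, though lymph node replicate 2 was close to the lowest spleen. The ratio of spleen replicate 1 rests on 55 and 31 clonotypes. Skin replicates 1, 3 and 4 had 1.75, 3.0 and 2.5, from 7 or fewer clonotypes of either gene. This ratio was not tested, and no other pair of V genes was set beside it, so a link to tissue is not shown.

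Among the isotypes, IGHV10-1 took a lower share of IgA and IgG2 than of IgM in spleen, and IGHV10-3 a lower share of IgA. IgM held 80.0% to 88.6% of IGHV10-1 clonotypes in spleen and 83.1% to 89.2% in lymph node. Within an isotype, IGHV10-1 made up 0.117%, 0.877%, 0.643% and 0.606% of spleen IgA clonotypes, 0%, 0.778%, 0.772% and 0.390% of IgG2 clonotypes, and 0.276%, 2.59%, 1.03% and 1.03% of IgM clonotypes in replicates 1 to 4. IgA and IgG2 were below IgM in every spleen. IGHV10-1 also made up 0.0613%, 1.43%, 0.529% and 0.479% of IgD clonotypes, again below IgM in every spleen, as was IgG3. IgG1 was below IgM in replicates 2 to 4 and above it in replicate 1, at 0.608% from 4 clonotypes. The lower share was thus not particular to IgA and IgG2, or to switched isotypes. IgD, IgG1 and IgG3 were not tested. The spleen log2 fold change over IgM, from edgeR with replicate as a term, was -0.97 for IgA (SE 0.342, adjusted p = 0.0233) and -1.38 for IgG2 (SE 0.376, adjusted p = 0.0263).

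IGHV10-3 made up 0.146%, 0.650%, 0.154% and 0.131% of spleen IgA clonotypes (5, 218, 18 and 23 clonotypes), 0%, 1.11%, 0.566% and 0.223% of IgG2 clonotypes (0, 199, 11 and 8), and 0.125%, 1.15%, 0.580% and 0.551% of IgM clonotypes (20, 3742, 1047 and 1271). IgA was below IgM in 3 of 4 spleens, and in replicate 1 it was slightly above. IgD, at 0.184%, 0.848%, 0.395% and 0.349%, was likewise below IgM in replicates 2 to 4 and above it in replicate 1, with no test. The log2 fold change over IgM was -1.24 for IgA (SE 0.431, adjusted p = 0.0233) and -0.50 for IgG2 (SE 0.415, adjusted p = 0.421). In the IgA comparison 29 of 86 V genes passed (33.7%, 14 higher and 15 lower), and in the IgG2 comparison 14 of 82 (17.1%), so the IGHV10 genes were not alone in either.

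These isotype calls were lost when some single spleens were left out. They were also lost without replicate as a term, at adjusted p = 0.227 and 0.30 for IgA of IGHV10-1 and IGHV10-3 and 0.352 for IgG2 of IGHV10-1. Without replicate 2 or 3 the adjusted p for IgA was 0.30 or 0.103 for IGHV10-1, and without replicate 2, 3 or 4 it was 0.101, 0.209 or 0.120 for IGHV10-3. The IgG2 call of IGHV10-1 had an adjusted p of 0.199, 0.0568 or 0.202 without replicate 2, 3 or 4. The direction stayed the same throughout these fits. IGHV13-2 was below the filter on low counts in the spleen isotype comparisons, with 0, 19, 1 and 0 IgA clonotypes.

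In lymph node IGHV10-1 made up 1.52%, 0.783%, 0.656% and 0.610% of IgG2 clonotypes (6, 21, 6 and 8 clonotypes), against 2.12%, 1.84%, 1.70% and 1.84% of IgM clonotypes, again lower in IgG2 in every replicate. The log2 fold change of IgG2 over IgM was -1.02 for IGHV10-1 (SE 0.391, adjusted p = 0.0955), -0.77 for IGHV10-3 (SE 0.426, adjusted p = 0.278) and -0.55 for IGHV13-2 (SE 1.05, adjusted p = 0.865). Of 79 V genes tested with edgeR, 0 passed (0%), with 18 at an unadjusted p under 0.05. Lymph node IgA was too sparse for a test, with 0 to 4 clonotypes of IGHV10-1 per replicate.

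**Figure D2:**
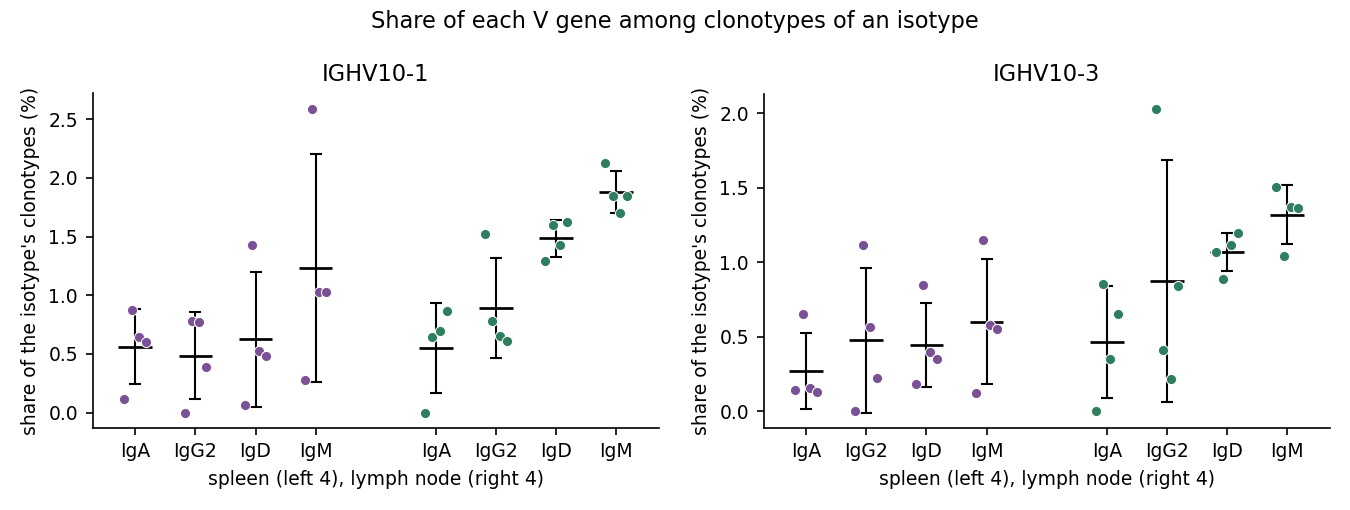
Share of each isotype's clonotypes (%, vertical axis) taken by IGHV10-1 and IGHV10-3 in spleen (left) and lymph node (right). Each point is 1 replicate in the order 1 to 4, bars are the mean with SD (n = 4), and the IgM mean is the highest of the 4 isotypes shown in each tissue.

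Restricted to IgM, the tissue difference of IGHV13-2 held. IGHV13-2 made up 0.00627%, 0.0322%, 0.0421% and 0.0208% of IgM clonotypes in spleen and 0.0754%, 0.0849%, 0.103% and 0.116% in lymph node (log2 fold change -1.65, SE 0.361, edgeR adjusted p = 0.00440). The IgM log2 fold change was -1.03 for IGHV10-3 (SE 0.395, adjusted p = 0.0551) and -0.52 for IGHV10-1 (SE 0.399, adjusted p = 0.352), and 24 of 90 V genes passed (26.7%). Without spleen replicate 2 these were -1.47 (adjusted p = 0.00110) and -1.12 (adjusted p = 0.00491). IGHV10-3 also passed without skin replicate 1 (adjusted p = 0.0452), without spleen replicate 1 (adjusted p = 0.0469) and with replicate number as a term.

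In IgM of skin, IGHV10-1 had 3, 4, 0 and 2 clonotypes, IGHV10-3 had 0, 0, 1 and 2, and IGHV13-2 had none. The log2 fold change of skin over spleen was -0.52 for IGHV10-1 (SE 0.827, adjusted p = 0.698) and -1.08 for IGHV10-3 (SE 1.17, adjusted p = 0.548), with 6 of 90 V genes passing (6.67%). Over lymph node it was -1.04 for IGHV10-1 (SE 0.799, adjusted p = 0.501) and -2.10 for IGHV10-3 (SE 1.06, adjusted p = 0.30), with 1 of 90 passing (1.11%). The members did not pass the filter on low counts in the IgA comparisons between tissues.

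The V segments of IGHV10-1 and IGHV10-3 carried fewer mutations than those of other V genes. Mutation was the mismatched share of the aligned V nucleotides, averaged over clonotypes. IGHV10-1 had 0.358%, 0.217%, 0.283% and 0.266% in spleen and 0.218%, 0.212%, 0.237% and 0.232% in lymph node, against 1.13%, 0.894%, 0.685% and 0.686% in spleen and 0.582%, 0.606%, 0.553% and 0.473% in lymph node for all other V genes. It was lower in 8 of 8 replicates, and the groups did not overlap. The mean was 0.253% ± 0.0493 for IGHV10-1 and 0.702% ± 0.215 for the other V genes (SD, n = 8). The difference was -0.449 percentage points (exact two-sided sign-flip test over 8 replicates, adjusted p = 0.0154), in a comparison where 34 of 61 V genes with at least 50 clonotypes in every spleen and lymph node replicate passed (55.7%). Ranked from the lowest, IGHV10-1 was 2nd to 14th of 64 to 96 V genes in each replicate.

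IGHV10-3 had 31 clonotypes in spleen replicate 1, under that minimum, so its tests used a minimum of 20. Its mutation was 0.517%, 0.296%, 0.261% and 0.273% in spleen and 0.245%, 0.259%, 0.225% and 0.226% in lymph node. The mean was 0.288% ± 0.0956, against 0.699% ± 0.214 for all other V genes, lower in 8 of 8 replicates (difference -0.411 percentage points, exact sign-flip adjusted p = 0.0147), with 44 of 77 V genes passing (57.1%). IGHV13-2 had too few clonotypes for the test. Its mutation was 0%, 0.406%, 0.702% and 0.28% in spleen, the first from 1 clonotype, and 0.467%, 0.172%, 0.245% and 0.162% in lymph node. Spleen replicate 3 was slightly above all other V genes there (0.682%), and the rest were below. Same-numbered spleens and lymph nodes may come from 1 mouse, which the labels do not say, and then the 8 values would not be independent.

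The low mutation was also seen within single isotypes. Within IgM alone and with a minimum of 20 clonotypes, also tried after seeing the data, mutation was 0.212% ± 0.0118 for IGHV10-1 against 0.547% ± 0.0855 for other V genes, and 0.259% ± 0.0591 for IGHV10-3 against 0.545% ± 0.0842 (SD, n = 8). Both were lower in 8 of 8 replicates (exact sign-flip adjusted p = 0.0139), and 53 of 73 V genes passed (72.6%). In spleen IgA, IGHV10-1 had 0.413%, 0.479%, 2.21% and 1.62% over 4, 294, 75 and 106 clonotypes, against 3.12%, 2.99%, 3.38% and 3.25% for other V genes. It was lower in all 4 spleens, with a wide gap between the first pair of replicates and the last.

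Mutation did not pass between spleen and lymph node. For IGHV10-1, spleen averaged 0.281% ± 0.0586 and lymph node 0.225% ± 0.0117 (SD, n = 4 each, exact permutation p = 0.114, adjusted p = 0.232). For mutation, CDR3 length and CDR3 charge alike 0 of 61 V genes passed in the exact permutation test (0%), nor any of 244 pairs of a V and a J gene. At an unadjusted p under 0.05 there were 11, 27, 6 and 108. With 4 against 4 the smallest p the test can give is 0.0286. After adjustment a V gene could thus pass only if many others also had p-values near that floor, so the lack of calls does not show that the tissues are alike.

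Unmutated clonotypes made up 45.5%, 68.3%, 67.2% and 66.8% of IGHV10-1 clonotypes in spleen, and 62.0%, 62.7%, 58.0% and 63.6% in lymph node. For V genes outside the 3 members the shares were 45.7%, 60.3%, 62.8% and 62.8% in spleen, and 57.7%, 59.5%, 58.7% and 63.4% in lymph node. The gap was thus small in the share of unmutated clonotypes and larger in the mean. In spleen replicate 1 and lymph node replicate 3 the unmutated share of IGHV10-1 was slightly below that of the other V genes. For IGHV10-3 the shares were 29.0%, 67.6%, 67.8% and 65.8% in spleen, and 62.1%, 61.4%, 62.1% and 65.1% in lymph node. Spleen replicate 1, with 55 and 31 clonotypes of the pair, was low for both. There IGHV10-3 had a smaller unmutated share than the V genes outside the members (29.0% against 45.7%), although its mean mutation was lower than theirs.

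The CDR3 set IGHV10-3 apart by charge. Net charge was counted as arginine and lysine minus aspartate and glutamate. IGHV10-3 had -0.84, -0.87, -0.88 and -0.88 in spleen and -0.73, -0.85, -0.90 and -0.85 in lymph node, a mean of -0.850 ± 0.0522, against -0.405 ± 0.0196 for all other V genes (SD, n = 8). It was lower in 8 of 8 replicates (difference -0.446, exact sign-flip adjusted p = 0.0134), with 55 of 77 V genes passing (71.4%). It was 6th to 10th lowest of 69 to 96 V genes in the 7 replicates where it had 50 clonotypes.

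IGHV10-1 was close to the other V genes in charge, at -0.468 ± 0.0557 against -0.408 ± 0.0213 (difference -0.060, lower in 7 of 8 replicates, exact sign-flip adjusted p = 0.0232), with 43 of 61 passing (70.5%). With copies as weights the difference was -0.149 and missed the threshold (exact sign-flip adjusted p = 0.246). The genes also differed in their CDR3 residues. IGHV10-3 carried 1.69 ± 0.0686 aspartates and 0.356 ± 0.0193 glutamates per CDR3, against 1.41 ± 0.0440 and 0.219 ± 0.00639 in all other V genes. IGHV10-1 carried 1.41 ± 0.0320 aspartates, like the other V genes at 1.41 ± 0.0454, but 0.383 ± 0.0285 histidines, against 0.125 ± 0.00842 (SD, n = 8 each). Histidine was not counted as charged. These differences in residues were not tested.

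IGHV10-1 also had shorter CDR3s. Its mean length was 11.4, 11.4, 11.6 and 11.4 residues in spleen and 12.0, 11.9, 11.9 and 11.9 in lymph node, against 12.1, 12.0, 12.0 and 12.0 in spleen and 12.4, 12.3, 12.3 and 12.3 in lymph node for other V genes. The mean difference was -0.46 residues, lower in 8 of 8 replicates (exact sign-flip adjusted p = 0.0140), where 44 of 61 V genes passed (72.1%). With copies as weights the call was lost, at -0.25 residues (exact sign-flip adjusted p = 0.395). IGHV10-3 was near the other V genes at 12.2 ± 0.20 against 12.2 ± 0.157 residues (difference 0.07, higher in 5 of 8 replicates, exact sign-flip adjusted p = 0.392, with 55 of 77 passing, 71.4%). IGHV13-2 had 11.1 ± 0.929 residues (SD, n = 8), a mean that includes spleen replicate 1 with 1 clonotype of 9 residues and lymph node replicate 1 with 19 clonotypes. It was 5th to 11th shortest in the 6 replicates where it had 50 clonotypes.

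**Figure D3:**
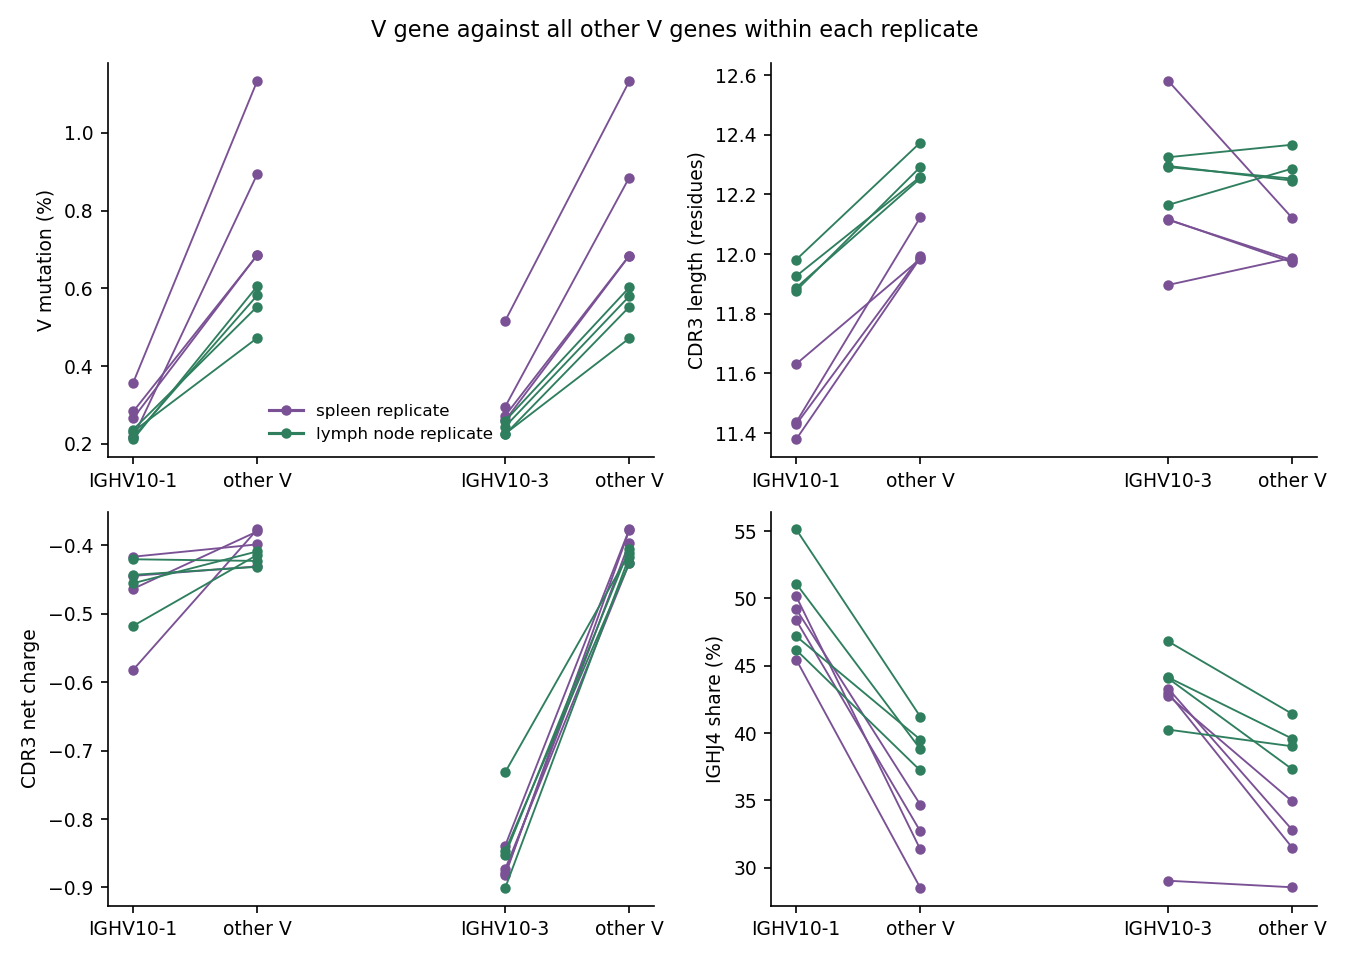
V mutation (%), CDR3 length (residues), CDR3 net charge and IGHJ4 share (%) of IGHV10-1 and IGHV10-3, each joined by a line to all other V genes of the same replicate. The lines are 4 spleen and 4 lymph node replicates, and those for mutation and IGHJ4 share run the same way in all 8. Axes do not start at 0.

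J gene pairing differed for both IGHV10 genes, toward IGHJ4 and away from IGHJ2. IGHJ4, the J segment farthest downstream in the mouse, made up 45.5%, 49.2%, 48.4% and 50.1% of IGHV10-1 clonotypes in spleen and 55.1%, 46.2%, 47.2% and 51.1% in lymph node, against 28.5%, 34.7%, 32.7% and 31.4% in spleen and 41.2%, 37.2%, 39.5% and 38.8% in lymph node for other V genes. The mean difference was 13.6 percentage points (49.1% ± 3.10 against 35.5% ± 4.43, SD, n = 8, higher in 8 of 8, exact sign-flip adjusted p = 0.0203). With copies as weights it was 15.9 points, higher in 7 of 8, and missed the threshold (exact sign-flip adjusted p = 0.0719). IGHJ2 was at 22.7% ± 1.98 against 33.2% ± 0.857 (difference -10.5, lower in 8 of 8, exact sign-flip adjusted p = 0.0203). Of 244 pairs of a V and a J gene, 123 passed (50.4%).

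The other J genes moved less in IGHV10-1. IGHJ1 was at 18.3% ± 1.35 against 20.2% ± 0.708 (difference -1.82, lower in 7 of 8, exact sign-flip adjusted p = 0.0337), but its adjusted p was between 0.0553 and 0.0652 without any 1 replicate other than lymph node replicate 2, and the difference was 2.44 with copies as weights. IGHJ3 was at 9.91% ± 2.33 against 11.1% ± 3.63 (exact sign-flip adjusted p = 0.19). IGHV10-3 had IGHJ4 at 41.7% ± 5.42 against 35.6% ± 4.46 (difference 6.03, higher in 8 of 8, exact sign-flip adjusted p = 0.0189) and IGHJ2 at 28.3% ± 3.84 against 33.1% ± 0.854 (difference -4.83, lower in 7 of 8, adjusted p = 0.0315), with 165 of 308 pairs passing (53.6%). IGHV13-2 had IGHJ4 at 31.5%, 46.4% and 37.3% in lymph node replicates 2 to 4, which hold most of its lymph node clonotypes.

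**Figure D4:**
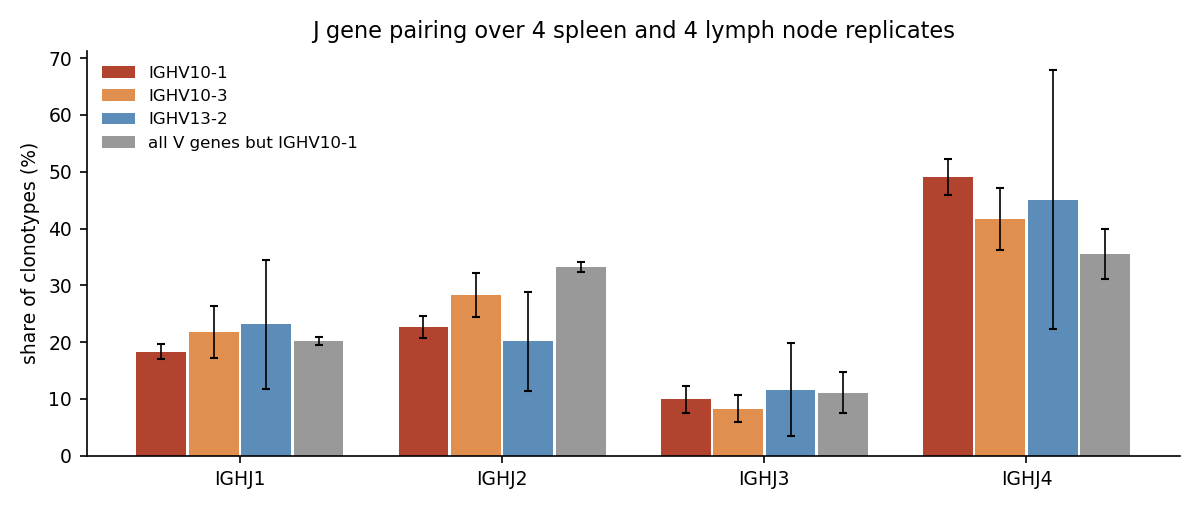
Share of clonotypes (%, bars from 0) joined to each J gene for the 3 members and for all V genes but IGHV10-1. Bars are means with SD over 4 spleen and 4 lymph node replicates (n = 8), and IGHV10-1 has the tallest IGHJ4 bar, at 49.1%; the IGHV13-2 bars include spleen replicate 1 with 1 clonotype.

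In skin the members were represented by 29 clonotypes, of which 12 were mostly IgM, 7 IgD and 10 IgA. Of the 29, 1 was found in both technical tables, a share near that of other V genes in skin, 3.83% to 7.55% per replicate. Grouped by J gene, CDR3 length and 85% identity of CDR3 nucleotides, they fell into 9, 4 and 1 lineages of IGHV10-1, IGHV10-3 and IGHV13-2, 14 in all. Their median copy number was 1, 15 were unmutated, and 4 were also found in a spleen or lymph node. The junctions below are, for each gene, the skin clonotype with the most copies (for IGHV13-2, 1 of 3 with 1 copy) and the clonotype found in the most tissue replicates, with capitals marking the letters that match the gene's most frequent junction start.
IGHV10-1 in skin: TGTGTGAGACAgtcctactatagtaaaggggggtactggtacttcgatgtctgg
IGHV10-1 in most replicates: TGTGTGAGACgggactactttgactactgg
IGHV10-3 in skin: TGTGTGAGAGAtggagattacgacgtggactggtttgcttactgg
IGHV10-3 in most replicates: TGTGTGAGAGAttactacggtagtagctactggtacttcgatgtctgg
IGHV13-2 in skin: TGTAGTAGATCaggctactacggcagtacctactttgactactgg
IGHV13-2 in most replicates: TGTAGTAGATCgggggctatggactactgg

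The IGHV10-1 skin clonotype had 45 IgD copies in replicate 1, all in 1 technical table, with IGHJ1 and 0.234% mutation. IgD was where IGHV10-1 reached its highest skin shares, at 4 of 66 IgD clonotypes (6.06%) in replicate 1 and 3 of 47 (6.38%) in replicate 4, with none in replicates 2 and 3. In both replicates these IgD clonotypes shared a J gene and a CDR3 length, 16 residues in replicate 1 and 9 in replicate 4, and formed 1 lineage. Each of these IgD shares thus rests on 1 lineage. In replicate 2 an IGHV10-1 clonotype with IGHJ2 and 10 IgM copies also had 157 copies in spleen replicate 2 and 2 in lymph node replicate 2. In replicate 3 an IGHV10-1 IgA clonotype of 9 copies also had 22 copies in spleen replicate 3.

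The IGHV10-3 skin clonotype was IgA in replicate 1, with 105 copies (83 and 22 in the technical tables), IGHJ3 and 2.77% mutation. It was the most mutated of the members' skin clonotypes with more than 1 copy. Its single-copy relatives made up the other 3 IGHV10-3 clonotypes of that replicate, so that the 4 of 50 IgA clonotypes (8.00%) were 1 lineage. It held 97.2% of the gene's copies there. In replicate 4 the largest IGHV10-3 clonotype was an unmutated IgM one with IGHJ4 and 35 copies in 1 technical table.

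The 3 IGHV13-2 clonotypes of skin replicate 4 were single IgA copies in 1 technical table, unmutated and of 1 lineage. One had the same junction as a clonotype with 534 copies in spleen replicate 2, where it was IgM in 530, and with 3 copies in lymph node replicate 2. Whether these skin copies came from that replicate's library was not tested. The clonotypes found in the most replicates had few copies anywhere. The IGHV10-1 one was in 6 replicates with 62 copies, the IGHV10-3 one in 5 with 17 and the IGHV13-2 one in 4 with 15.

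Some clonotypes recurred between replicates. Of distinct clonotypes in the tissues, 2.61% for IGHV10-1, 1.81% for IGHV10-3 and 2.65% for IGHV13-2 were in 2 or more replicates, against 1.62% for V genes outside the members, with no test. Same-numbered spleens and lymph nodes shared 3, 253, 40 and 84 clonotypes of the 3 genes in replicates 1 to 4, which is 0.317%, 7.63%, 2.56% and 2.74% of the lymph node's. Spleens and lymph nodes of different numbers shared 0 to 86. Lymph node replicates 2 and 3 shared the largest part of their clonotypes with the spleen of their own number. Lymph node replicate 1 shared most with spleen replicate 2 (3.06%), the most deeply sampled, and lymph node replicate 4 shared 2.80% with it. These counts depend on spleen depth. With lymph node replicate 4, spleen replicate 2 shared 86 of its 14486 clonotypes and spleen replicate 4 shared 84 of its 4288. With lymph node replicate 1, spleen replicate 2 shared 29 of its 14486 and spleen replicate 1 shared 3 of its 87.

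A few expanded clonotypes held much of the copy count. In lymph node replicate 1 an IgM clonotype of IGHV10-1 with IGHJ1 had 1061 copies (514 and 547 in the technical tables), 36.9% of the gene's copies. In lymph node replicate 4 another, with IGHJ4, had 1700 copies (845 and 855), or 38.8%. Both were nearly unmutated, at 0.0283% and 0.00711%. They came with the highest IGHV10-1 copy shares, 3.08% and 2.01%, against 1.62% and 1.45% in lymph node replicates 2 and 3.

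In spleen replicate 2 the largest clonotypes were IgM with 1974 copies for IGHV10-1 (7.85% of its copies, also with 91 copies in lymph node replicate 2), 1823 for IGHV10-3 (13.4%, of which 1715 were IgM) and 534 for IGHV13-2 (65.6%). All 3 were found in both technical tables at like numbers. The IGHV13-2 copy share there was 0.0598%, against 0.00123%, 0.0295% and 0.0102% in spleen replicates 1, 3 and 4 and 0.0311%, 0.0557%, 0.0592% and 0.0592% in lymph node. By copies, spleen and lymph node thus overlapped for IGHV13-2.

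**Figure D5:**
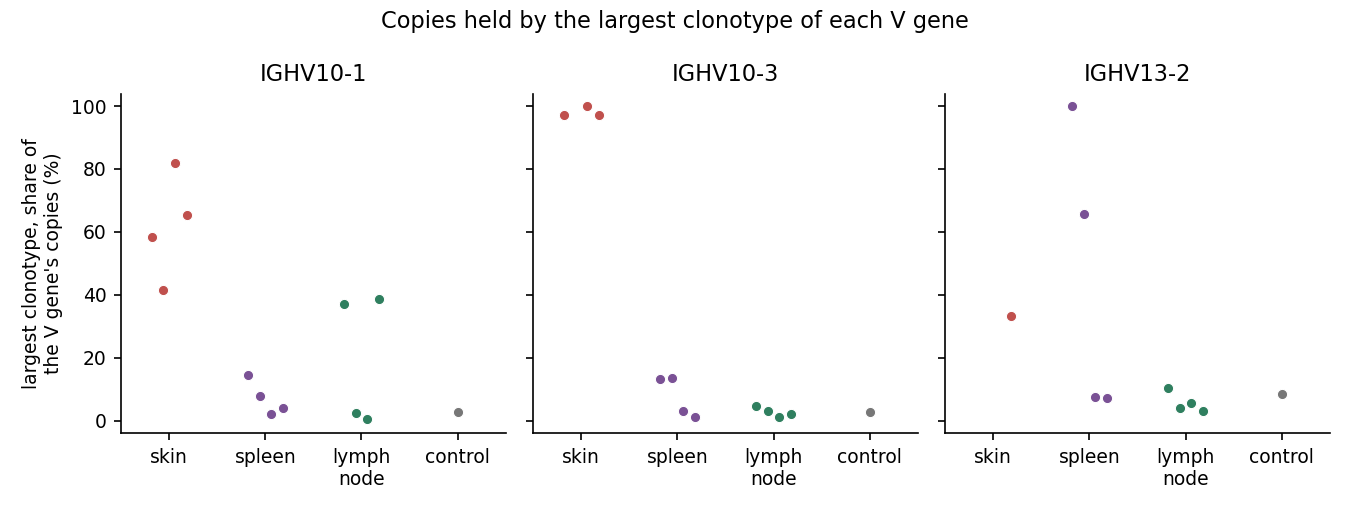
Share of a V gene's copies held by its largest clonotype (%, vertical axis from 0 to 100) in skin, spleen, lymph node and the control. Each point is 1 replicate in which the gene was found. Skin points rest on 7 or fewer clonotypes each, and lymph node replicates 1 and 4 stand out for IGHV10-1 at 36.9% and 38.8%.

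The control differed from the tissues in the alleles called. Its IGHV10-1 sequences were *02 (3854 of 3893), its IGHV10-3 sequences *03 (854 of 860) and its IGHV13-2 sequences *02 (92 of 92). IGHV10-1*02 differs from *01 by A57G and G82C, and IGHV13-2*02 from *01 by G61A, C63T, A99G, G100C and T140A. In the control 62.4% of IGHV10-1 and 64.2% of IGHV10-3 clonotypes were unmutated, against 38.4% of other V genes.

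The control also held 7534 clonotypes called IGHV10S3 (1.95%), a name that 10 tissue clonotypes carried. The IGHV10-1*02 and IGHV10S3*01 stretches of 141 nucleotides were identical, so only the junction can separate the calls. The junction start tgtgtgaga was found in 36 of 3265 control IGHV10-1 clonotypes (1.10%) and in 96.0% of control IGHV10S3 clonotypes, against 74.5% of tissue IGHV10-1 clonotypes. IGHV10-1 and IGHV10S3 together made up 2.79% of control clonotypes. The IGHV10-1 values of the control, its share of 0.844%, its CDR3 length of 9.49 residues and its IGHJ4 share of 35.9%, are therefore given without a comparison with the tissues.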

How the data were processed

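Heavy-chain transcripts were sequenced in bulk by a commercial service. Per the labels' protocols, molecular identifiers were added at reverse transcription and a V primer mix was used, so V gene shares may carry primer differences, and reads run from framework 2. The 26 deposited tables give a whole-number count per sequence (copies here), without stating whether it counts identifiers or reads. The deposited tables also give mismatched and aligned V nucleotides, another measurement. For gene assignment the sources used here name no program, and the build was mm10 per the submitters' processing notes.

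The 2 technical tables of a replicate were summed. A clonotype counted in each isotype in which it had copies. Clonotypes per V gene were tested with edgeR 4.0.16 (R 4.3.3; quasi-likelihood, TMM, its filter for low counts, Benjamini-Hochberg over all V genes tested) on 12 tissue replicates, and isotypes within a tissue with replicate as a term, since both isotypes come from the same libraries. Tissue fits had no replicate term. DESeq2 1.42.0 was an alternative. Mutation, CDR3 and J values were tested per V gene with at least 50 clonotypes in each spleen and lymph node replicate, by exact two-sided permutation (70 splits) or sign-flip over 8 replicates (256, smallest p = 0.0078), adjusted over all V genes, or V and J pairs. These ran in numpy 2.4.6 with pandas 2.3.3 and Python 3.11.15, and were tested on simulated data. The Clopper-Pearson intervals came from scipy 1.17.1. In simulated counts with 20 V genes changed 4-fold, edgeR recovered 60% for skin against spleen and 70% for skin against lymph node. For spleen against lymph node it recovered 100%. False calls were 2, 1 and 0, so the skin comparisons can miss changes of that size. Depth is given with the samples.

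The members, the list of smaller families and the tests were chosen with earlier results of these data known. All 3 members are given. Genes named as most alike were the 3 with the highest correlation (edgeR's log2 shares, prior count 2), and clonotypes shown were those with most copies in skin or in most replicates. Clonotypes named for their copies or for sharing were chosen after their values were seen. V stretches were read from unmutated sequences of the deposited tables, and gene positions from RefSeq, where all 3 symbols matched.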

Additional observations from a re-analysis of the deposited data

Results flagged for a closer look

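Values of the 3 genes were examined for a replicate far from the other 3 in 42 groups of 4, and 7 had one. The rule's chance rate of about 1 in 20 holds only for independent values of equal precision. It cannot be applied here, because a share found in 1 replicate only always meets the rule. Spleen replicate 1 also had far fewer clonotypes than the other spleens, and some of the values overlap in what they measure. The 7 groups are therefore listed without a comparison with chance. IGHV13-2 in skin replicate 4 had 1.09% of clonotypes and 0.0532% of copies, against 0 in the other skin replicates, from 3 single-copy clonotypes. The IGHV13-2 copy share of lymph node replicate 1 was 0.0311%, against 0.0557% to 0.0592% in the other lymph nodes.

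Spleen replicate 1 stood apart in 4 values, over 55 clonotypes of IGHV10-1 and 31 of IGHV10-3. Unmutated clonotypes made up 45.5% of IGHV10-1, against 66.8% to 68.3% in the other spleens, and 29.0% of IGHV10-3, against 65.8% to 67.8%. IGHV10-3 mutation was 0.517%, against 0.261% to 0.296%, and its IGHJ4 share was 29.0%, against 42.8% to 43.3%. V genes outside the members also had fewer unmutated clonotypes in this replicate, 45.7% against 60.3% to 62.8%.

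In the positive control, which enters no comparison, clonotypes called IGHV10S3 made up 1.95%, against 0 to 0.00363% in the tissue replicates.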

How the results depend on the processing

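Of 680 values recomputed under alternatives, 537 kept both their direction and their side of the threshold or, for counts of calls, stayed within 1.5 times. Another 42 kept their direction but lost the call, 9 kept it and gained one, 70 counts moved further and 22 values turned direction. The cause of the others' changes was not tested. Depth limits the skin values most, with 275 to 350 clonotypes per replicate.

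The calls among all clonotypes, 7 for skin over spleen, 0 for skin over lymph node and 20 for spleen over lymph node, were 48, 37 and 34 with DESeq2 and 13, 13 and 0 with copies. Fitting only the compared tissues gave 0 calls for skin over spleen and 38 for spleen over lymph node. Calls for skin over lymph node were 5 without TMM, 2 without the filter, 1 with at least 2 copies, 3 in the first and 2 in the second technical table. Calls for skin over spleen were 3 in the second table and 3 by lineages. Leaving out 1 replicate gave 2 to 11, 0 to 6 (1 to 6 where any was called) and 6 to 31. In IgM, skin over spleen had 1 call with at least 2 copies, skin over lymph node 2 without the filter, and leaving out 1 replicate gave 0 to 18, 0 to 2 and 16 to 45 for the 3 comparisons.

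The log2 fold change of IGHV10-1 for skin over spleen turned to -0.30 with copies, -0.31 with at least 2 copies, -0.068 and -0.22 in the first and second technical tables, and lay between -0.14 and 1.02 on leaving out 1 replicate (-0.994 to 0.0775 in IgM). For skin over lymph node it was 0.022 with DESeq2. IGHV10-3 for skin over spleen turned to 0.19 with DESeq2, 0.31 with copies, 0.11 in the first table and lay between -1.12 and 0.39 on leaving out 1 replicate. IGHV13-2 for skin over spleen was 3.43 with DESeq2 (adjusted p = 0.00262) and -1.13 with copies, and for skin over lymph node -1.91 with copies and -0.089 by lineages. It could not be fitted without skin replicate 4 or in the second table, where skin had none. For spleen over lymph node, IGHV10-3 missed the threshold at -1.16 (DESeq2, no TMM and copies), -1.0 (no filter), -1.07 (2 tissues only), -1.15 (either technical table) and up to -0.80 on leaving out 1 replicate (range -1.68 to -0.80), IGHV13-2 at -0.78 with copies, and IGHV10-1 passed at -1.35 without spleen replicate 2 (range -1.35 to -0.333).

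Same-numbered samples of different tissues did not deviate together throughout (correlations of -0.173 to 0.256 for spleen and lymph node, 0.0163 to 0.206 for skin and spleen, -0.00318 to 0.159 for skin and lymph node). The labels do not tie them either, and the main fits did not take the numbers as pairs. That does not show them to be unpaired. Same-numbered spleens and lymph nodes shared many clonotypes of the members, 253, 40 and 84 in replicates 2 to 4. With the replicate block there was 1 call for skin over spleen and 11 for spleen over lymph node. IGHV10-3 was then at 0.071 for skin over spleen and -1.38 for spleen over lymph node (adjusted p = 0.0764), but passed in IgM at -1.27 (adjusted p = 0.00785). With no replicate block, IgA over IgM in spleen had 5 calls in place of 29, and IgG2 over IgM 1 in place of 14 in spleen and 16 in place of 0 in lymph node. Leaving out 1 replicate gave 4 to 38 (4 to 17 where the count moved), 1 to 14 (1 to 2) and 0 to 3, and no filter gave 2 in lymph node. IGHV13-2 for IgG2 over IgM in lymph node lay between -1.44 and 0.24 on leaving out 1 replicate.

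Counts of V genes that differed from the rest with copies as weights were 19 for mutation, 20 for CDR3 length, 13 for charge and 39 for J pairs. With at least 2 copies they were 17 for mutation and 72 for J pairs, and 30 V genes then differed in mutation between spleen and lymph node. In IgM with a minimum of 20 the mutation count was 53, IGHV10-1 mutation in spleen minus lymph node was -0.0093 points and its IGHJ3 difference 0.236. The IGHJ1 difference of IGHV10-1 was 2.44 with copies as weights. IGHV10-1 mutation passed in 12 of 12 settings.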

Other observations

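Some tissue sequences carried the V letters of one IGHV10 gene with the junction start most frequent in the other. These starts share their first 9 letters and differ in a single letter after them, where joining also varies the sequence, so such a start does not mark the other gene. Of 24808 tissue sequences called IGHV10-1 with all 3 IGHV10-1*01 letters, 1266 (5.10%) had the junction start most frequent in IGHV10-3. Of 12394 called IGHV10-3 with all 3 IGHV10-3*02 letters, 185 (1.49%) had the start most frequent in IGHV10-1. Of the 118 called IGHV10-3 that had all 3 IGHV10-1*01 letters, 109 (92.4%) had the IGHV10-3 junction start.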
